A study of Homo sapiens with 4 samples.

Results

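Caspases are the proteases that carry out apoptosis, and 8 genes of this machinery are described here across 4 RNA libraries: the caspases CASP2, CASP6, CASP8 and CASP9, the apoptosome parts APAF1 and CYCS, the caspase inhibitor XIAP and its antagonist DIABLO. They were chosen by name, as a set of 8 among the 64252 gene rows of the deposited count table. All 8 were among the 19767 genes with enough counts to be tested. The cells were SK-N-BE(2), a neuroblastoma line of human origin that is established in culture. In 2 libraries the cells carried a short hairpin RNA against IGF2BP3, an RNA-binding protein (shIGF2BP3), and in 2 a control hairpin (shControl). The series title asks how IGF2BP3 acts on E2F2 and on neuroblastoma growth. A single line and a single hairpin label were compared, the labels say neither how long after transfection RNA was taken nor whether the cells were a pool or a clone, and they do not say that the libraries came from separate cultures. The p-values therefore rest on library-to-library spread alone, part or all of which may be technical.

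Apoptosis starts along separate routes that meet at the same proteases. In the mitochondrial route, cytochrome c (CYCS) leaves the mitochondrion and binds APAF1, which assembles into a wheel, the apoptosome, on which the initiator CASP9 becomes active. In the death receptor route the initiator is CASP8, which is recruited to ligand-bound receptors through the adaptor FADD. Initiators cleave executioners, of which CASP6 is one. XIAP binds CASP9 and blocks it, and DIABLO, released with cytochrome c, displaces XIAP. In neuroblastoma, CASP8 is known as a gene that is often silenced by methylation. These libraries measure RNA. Release from mitochondria, cleavage and cell death were not measured, and counts per gene do not separate the isoforms that several of these genes make.

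The members can be read in their own sequence. The first set below holds the coding bases around the codon of the catalytic cysteine of each caspase, in capitals. It is shown because all 4 caspases have this cysteine, while their RNA results differed. Bases are 5′ to 3′ on the coding strand, from the longest complete coding transcript of each gene in GENCODE release 29 (GRCh38). The stretch of CASP8 lies within exon 8 of 9 (chr2:201285079-201285105, plus strand). Those of CASP2 (chr7:143300273-143303788, plus strand, codon 320), CASP6 (chr4:109690992-109694533, minus strand, codon 163) and CASP9 (chr1:15495448-15504632, minus strand, codon 287) each cross an exon junction, so the span includes an intron.
CASP2: ttcatccaggccTGCcgtggagatgag
CASP6: atcattcaggcaTGTcggggaaaccag
CASP8: tttattcaggctTGTcagggggataac
CASP9: ttcatccaggccTGTggtggggagcag

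The second set holds the codons by which DIABLO and CASP9 both bind XIAP, again in capitals, shown because these 3 genes form the inhibitor arm described below. In each protein a stretch of 4 residues, exposed once the precursor has been cut, fits the same groove of XIAP. In DIABLO it begins at codon 56, which lies in exon 2 of 6 (chr12:122218395-122224538, minus strand, across an exon junction). In CASP9 it begins at codon 316, in exon 7 of 8 (chr1:15495355-15495384, minus strand).
DIABLO: accctgtgtGCGGTTCCTATTgcacagaaa
CASP9: gagccagatGCCACCCCGTTCcaggaaggt

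The knockdown was seen in the RNA: IGF2BP3 stood at 156.5 and 138.9 CPM (counts per unit of library depth, after edgeR's TMM scaling) in shControl and at 28.7 and 31.89 in shIGF2BP3 (log2 fold change -2.28, SE 0.09). E2F2, from the series title, fell by 1.69 on the log2 scale. Total counts were 26755695 to 31946756 per library, and where a gene had no count, its level in that library could still be as high as 0.0958 to 0.111 CPM (3 counts, counting error alone). Chi-square divided by its degrees of freedom was 6.76 between the shIGF2BP3 replicates and 7.80 between the shControl replicates, so both pairs differed beyond counting noise, and it was 129.2 to 134.7 between libraries of different groups. Markers of sympathetic neuroblasts were present in every library, with HAND2 and GATA3 at 227.5 CPM or more. The summed level of the 10 neuroblastoma markers was 3265 to 3352 CPM in shControl and 1994 to 2174 CPM in shIGF2BP3, and 8 of them fell, 1 rose and 1 did not pass. The 8 fibroblast markers summed to 830.7 to 864.8 CPM in shControl and 1037 to 1053 in shIGF2BP3, where 4 rose and 1 fell. Markers of Schwann cells, leukocytes, epithelium and endothelium summed to at most 11.4 CPM each in any library, with SOX10, CD3E, KRT5 and PECAM1 at 0 counts in all. Of their 11 tested members, 2 rose and 3 fell. These marker counts stand beside the 25.9% of all tested genes that rose and the 25.6% that fell by the same test, which is described below. The part of these shifts in the results below was not tested, and in bulk RNA fewer cells of a type and less RNA per cell cannot be told apart.

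Of the 8 genes, 5 rose after knockdown (CASP8, DIABLO, CYCS, XIAP and CASP2), 1 fell (CASP9) and 2 did not pass (CASP6 and APAF1). Calls are those of edgeR's quasi-likelihood test at an adjusted p under 0.05, with the Benjamini-Hochberg method applied over all tested genes. This knockdown changed much of the transcriptome: 51.5% of all tested genes passed, 25.9% higher and 25.6% lower. A count of 6 in 8 therefore stands beside a background in which a call is common. The median log2 fold change of the 8 genes was 0.37, against 0.01 for all tested genes. The shIGF2BP3 and shControl libraries did not overlap in 7 of the 8, which also holds for 74.5% of all tested genes. Only in APAF1, among the 8, did the groups overlap.

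**Figure D1:**
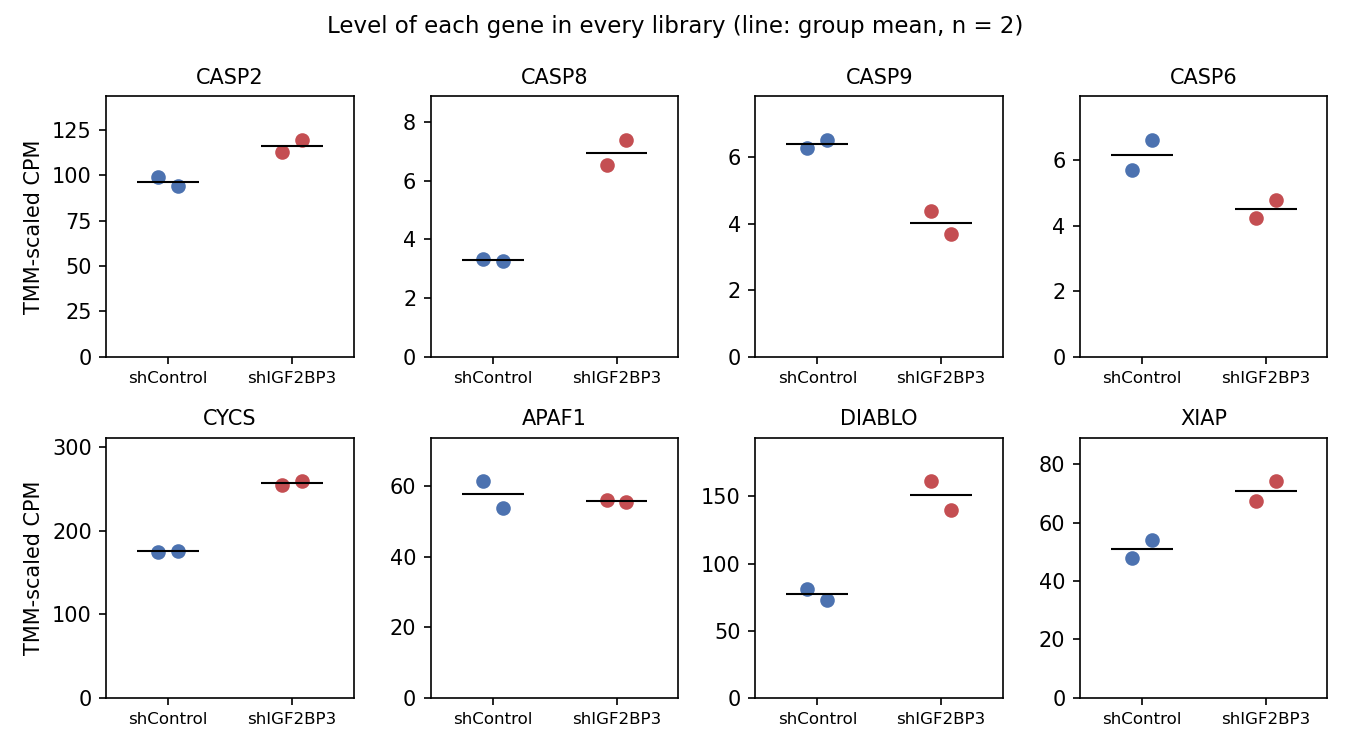
TMM-scaled CPM (y axis, from 0) of each of the 8 genes in the 2 shControl and 2 shIGF2BP3 libraries (points), with the group mean as a line. DIABLO, CYCS, CASP8, XIAP and CASP2 lie higher in both shIGF2BP3 libraries, CASP9 and CASP6 lower, and APAF1 overlaps.

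CASP8 (ENSG00000064012, chr2:201233443-201287711, plus strand), the initiator of the death receptor route, had the largest fold change of the 8 genes, at a low level. It had 90 and 102 counts in shControl and 185 and 203 in shIGF2BP3, or 3.34 and 3.26 against 6.53 and 7.40 CPM. Both shControl libraries were close together, and each shIGF2BP3 library lay well above them. The mean rose from 3.30 ± 0.0593 to 6.96 ± 0.615 CPM (SD, n = 2 each), which is 2.11-fold (log2 1.08, SE 0.24, 95% interval 0.58 to 1.57, adjusted p = 0.000886). Among all tested genes this change ranked at the 88.8th percentile of fold changes, and the gene's mean level at the 36.9th percentile of levels.

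CASP9 (ENSG00000132906, chr1:15490832-15526534, minus strand), the initiator that the apoptosome activates, moved the other way. Its counts were 169 and 204 in shControl and 124 and 101 in shIGF2BP3, or 6.28 and 6.52 against 4.38 and 3.68 CPM. The higher shIGF2BP3 library still lay below both shControl libraries. The mean fell from 6.40 ± 0.170 to 4.03 ± 0.492 CPM, a fall of 37% (log2 -0.67, SE 0.23, 95% interval -1.15 to -0.18, adjusted p = 0.0218 by edgeR's quasi-likelihood test). This call was not secure: DESeq2's Wald test gave an adjusted p = 0.107, and edgeR gave 0.148 without shIGF2BP3 replicate 2 and 0.0677 without shControl replicate 2. The fold change stayed below 0 in each of these. CELA2B, whose exons overlap those of CASP9, had 3 counts in 1 shControl library and 0 in the others.

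The initiators CASP8 and CASP9 thus changed order in the libraries. Within each library, which removes the scaling, CASP8 had 0.533 and 0.500 counts per CASP9 count in shControl and 1.49 and 2.01 in shIGF2BP3. CASP9 had more counts in both shControl libraries and CASP8 in both shIGF2BP3 libraries. Levels per kilobase of all annotated exons allow only roughly for unequal gene length. On that scale CASP8 stood at a mean of 0.456 and CASP9 at 1.21 CPM per kilobase in shControl. In shIGF2BP3 the means were 0.962 and 0.765. The exact permutation test cannot go below p = 0.333 with 2 libraries against 2, so no p is given for ratios.

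CASP2 (ENSG00000106144, chr7:143288215-143307696, plus strand), an initiator that is activated on the PIDDosome, a platform of PIDD1 and CRADD, showed the smallest change among the genes past the test. It stood at 99.3 and 93.9 CPM in shControl and 112.8 and 119.6 CPM in shIGF2BP3. The groups did not overlap, and their nearest libraries were at 99.3 and 112.8. The mean rose by 20.3%, from 96.6 ± 3.81 to 116.2 ± 4.79 CPM (log2 0.27, SE 0.08, adjusted p = 0.00624). Like CASP9, it lost its call without shIGF2BP3 replicate 2 (log2 0.23, adjusted p = 0.0649 by edgeR) and without shControl replicate 2 (0.21, adjusted p = 0.0685 by edgeR). In level per kilobase it was the most abundant of the 4 caspases, at 12.05 CPM per kilobase in shControl, followed by CASP6 at 3.16.

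CASP6 (ENSG00000138794, chr4:109688622-109703583, minus strand), the executioner that cleaves nuclear lamins, did not pass the test. Its counts were 153 and 207 in shControl and 120 and 131 in shIGF2BP3, or 5.68 and 6.61 against 4.24 and 4.78 CPM. Both shIGF2BP3 libraries lay below both shControl libraries. The log2 fold change was -0.46 with a 95% interval from -0.94 to 0.02 (adjusted p = 0.105, edgeR), so that the interval runs from a marked fall to just above 0. Its exons overlap by 105 bases those of MCUB, a gene on the opposite strand. MCUB had 206 and 246 counts in shControl and 58 and 81 in shIGF2BP3, and fell by 1.64 on the log2 scale. How strand was treated in counting is unknown here, so reads in the shared bases could have gone to either gene.

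CYCS (ENSG00000172115, chr7:25120091-25125361, minus strand), which encodes cytochrome c, is both a carrier of the respiratory chain and the trigger of apoptosome assembly. Its level was 175.0 and 176.0 CPM in shControl and 255.0 and 259.3 CPM in shIGF2BP3. Replicates were nearly equal, and the groups stood far apart. The mean rose 1.47-fold (log2 0.55, SE 0.06, 95% interval 0.42 to 0.69, adjusted p = 1.2e-06). At 39.4 CPM per kilobase in shControl and 57.7 in shIGF2BP3 it was the most abundant of the 8 genes in both groups. It has many processed pseudogenes that could share its reads: 42 rows of the table are named as such, and together they held 20 to 36 counts per library against 4712 to 7225 for CYCS.

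APAF1 (ENSG00000120868, chr12:98645141-98735433, plus strand), the scaffold of the apoptosome, did not pass the test. It stood at 61.4 and 53.8 CPM in shControl and 56.1 and 55.4 CPM in shIGF2BP3. Both shIGF2BP3 libraries fell between the shControl libraries. The log2 fold change was -0.04 with a 95% interval from -0.24 to 0.15 (adjusted p = 0.724, edgeR), and the shControl libraries differed from each other by 13.1% of their mean. ANKS1B on the opposite strand overlaps its exons by 750 bases and had 25 to 51 counts.

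The 3 genes of the apoptosome thus had unlike results. CYCS was higher, APAF1 did not pass the test, and CASP9 was lower with a call that was not secure. In counts within a library, CYCS had 2.85 and 3.27 counts per APAF1 count in shControl and 4.55 and 4.68 in shIGF2BP3. APAF1 had 9.78 and 8.25 counts per CASP9 count in shControl and 12.8 and 15.1 in shIGF2BP3. Neither ratio overlapped between the groups, but 74.5% of all tested genes did not overlap on their own. The share among all pairs of genes was not computed, and the ratios reuse the counts given above.

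DIABLO (ENSG00000184047, chr12:122207663-122226568, minus strand), also called SMAC, had the smallest adjusted p of the 8 genes. It had 2189 and 2273 counts in shControl and 4571 and 3845 in shIGF2BP3, or 81.3 and 72.6 against 161.3 and 140.1 CPM. Every shIGF2BP3 library exceeded every shControl library by a wide margin, although the shControl replicates differed by 11.3% and the shIGF2BP3 replicates by 14.1% of their mean. The mean rose 1.96-fold, from 77.0 ± 6.14 to 150.7 ± 14.99 CPM (log2 0.97, SE 0.09, 95% interval 0.792 to 1.153, adjusted p = 3.95e-08 by edgeR's quasi-likelihood test). B3GNT4 on the opposite strand covers 970 bases of its exons, had 43 to 111 counts, and was lower in shIGF2BP3 (log2 -1.02, adjusted p = 0.0112). A row without a symbol on the same strand (ENSG00000256861) covers 1139 bases of the exons of DIABLO and had 0 counts in every library.

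XIAP (ENSG00000101966, chrX:123859724-123913979, plus strand), the inhibitor that DIABLO displaces, rose as well. It stood at 48.0 and 53.9 CPM in shControl and 67.2 and 74.2 CPM in shIGF2BP3. The groups did not overlap. The mean rose 1.39-fold (log2 0.47, SE 0.09, 95% interval 0.28 to 0.66, adjusted p = 0.000314). Rows named as its pseudogenes or antisense held 17 counts in 1 shIGF2BP3 library and at most 2 in the others. DIABLO had 1.70 and 1.35 counts per XIAP count in shControl and 2.40 and 1.89 in shIGF2BP3, so antagonist and inhibitor both rose and their ratio was 1.41 times as high, with the nearest libraries at 1.70 and 1.89.

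**Figure D2:**
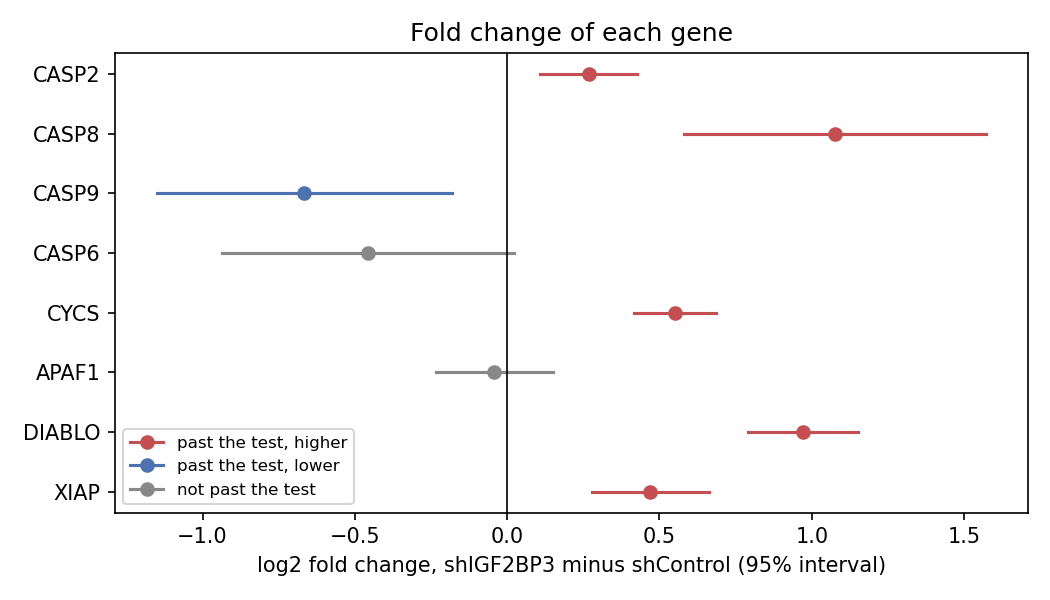
Log2 fold change (x axis, shIGF2BP3 minus shControl) of each of the 8 genes (rows) with its 95% interval, coloured by the call of edgeR's quasi-likelihood test. The intervals of CASP8, DIABLO, CYCS, XIAP and CASP2 lie above 0 and that of CASP9 below, while those of CASP6 and APAF1 include 0; the low-count genes CASP6, CASP8 and CASP9 have the widest intervals.

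In shControl the order of the 8 genes by level per kilobase of exon was CYCS (39.4 CPM per kilobase), CASP2 (12.05), DIABLO (11.4), APAF1 (7.28), XIAP (5.64), CASP6 (3.16), CASP9 (1.21) and CASP8 (0.456). In shIGF2BP3 it was CYCS (57.7), DIABLO (22.3), CASP2 (14.5), XIAP (7.83), APAF1 (7.05), CASP6 (2.32), CASP8 (0.962) and CASP9 (0.765). On this scale DIABLO passed CASP2, XIAP passed APAF1 and CASP8 passed CASP9. Of these pairs, CASP2 and DIABLO overlapped in shControl. XIAP and APAF1 were close in shIGF2BP3, at 7.45 and 8.22 against 7.09 and 7.01 CPM per kilobase. The order between genes depends on the length used, here all annotated exons. DIABLO has 6774 such bases but 1471 in its longest complete coding transcript, CASP2 8020 and 4225. For XIAP the lengths are 9025 and 8415, and for APAF1 7908 and 5444. With these transcript lengths DIABLO already lay above CASP2 in shControl, at 77.0 CPM over 1471 bases against 96.6 over 4225. XIAP stayed below APAF1 in shIGF2BP3, at 70.7 CPM over 8415 bases against 55.8 over 5444. Those changes of order thus appear only with the length of all annotated exons. CASP8 passed CASP9 with transcript lengths too (2930 and 4463 bases). The full order with transcript lengths was not computed.

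**Figure D3:**
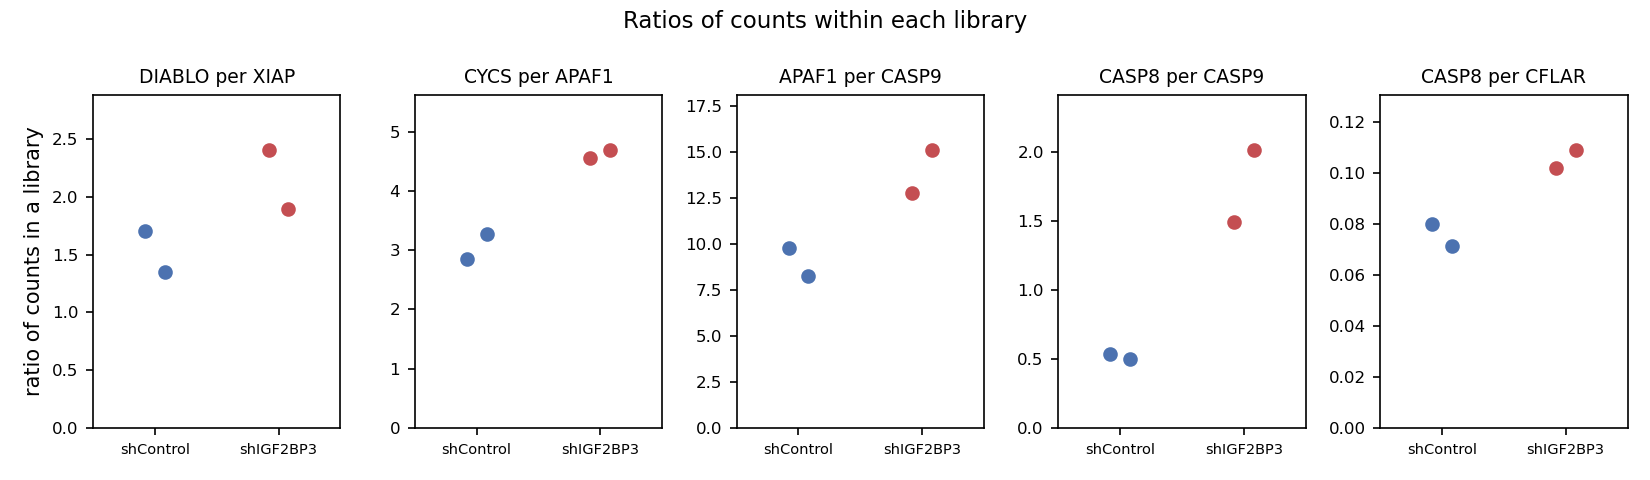
Ratios of counts within each library (y axes, from 0) for 5 pairs of genes, in the 2 shControl and 2 shIGF2BP3 libraries (points). Each ratio is higher in both shIGF2BP3 libraries, and the nearest libraries of DIABLO per XIAP are at 1.70 and 1.89. The ratios reuse the counts of the single genes, and the share of all gene pairs without overlap was not computed.

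The other genes of the pathway were read from 8 lists of 79 genes, of which 67 were tested. Among them 20 rose, 22 fell and 25 did not pass, to be read beside the 25.9% of all tested genes that rose and the 25.6% that fell. Their median log2 fold change was 0.06, against 0.01 for all tested genes. The counts of the single lists are descriptions, and differences between lists were not tested. Of the 8 lists, 1 is counted here but not described.

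CASP10, a paralog of CASP8, had 3 to 13 counts and did not pass. The inflammatory caspases CASP1 and CASP5, with CASP12 and CASP14, had 0 counts in every library. CASP4 of the same list had 26 and 49 counts in shControl and 56 and 54 in shIGF2BP3, and did not pass (log2 0.61). Of the 5 tested genes of that list, GSDME, a pore former that caspase cleavage activates, rose (log2 0.39), as did NLRP1, an inflammasome sensor (log2 0.51), and 3 did not pass. The call of GSDME ended without either library of replicate 2 (adjusted p = 0.071 and 0.11, edgeR), and that of NLRP1 with DESeq2 (adjusted p = 0.169) and without several single libraries.

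Around the apoptosome and cytochrome c release, 6 of 11 genes fell, 2 rose and 3 did not pass. ENDOG, a nuclease of the mitochondrion, fell by 1.31 on the log2 scale, from 68.0 and 67.5 to 27.7 and 27.2 CPM. AIFM1, an oxidoreductase of the same compartment that moves to the nucleus in cell death, fell (log2 -0.84), and so did HTRA2, a protease that antagonises XIAP as DIABLO does (log2 -0.75). The channels of the outer membrane also fell, with log2 fold changes of -0.84 for VDAC1, -0.38 for VDAC2 and -0.55 for VDAC3. AVEN, which binds APAF1 and restrains it, rose (log2 0.92), and so did OPA1, which shapes the cristae that hold cytochrome c (log2 0.30). The RNAs of proteins released with cytochrome c therefore did not share a direction: CYCS and DIABLO were higher, and ENDOG, AIFM1 and HTRA2 lower.

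Of 9 tested genes of the IAP family and its regulators, 3 rose, 2 fell and 4 did not pass. BIRC5 (survivin), which also serves in mitosis, fell from 174.4 and 157.9 to 17.1 and 14.4 CPM (log2 -3.40, SE 0.10), opposite to XIAP. TRAF2, an adaptor that binds BIRC2 and BIRC3, fell (log2 -0.49), and its call ended without shControl replicate 2 (adjusted p = 0.0632, edgeR). AREL1, a ubiquitin ligase that targets IAP antagonists such as DIABLO, rose (log2 0.27), as did the giant IAP BIRC6 (log2 0.21). Both calls ended without 1 shIGF2BP3 library, AREL1 without replicate 1 (adjusted p = 0.0601, edgeR) and BIRC6 without replicate 2 (adjusted p = 0.165, edgeR). BIRC3, the other gene of the list past the test, had 23 to 69 counts and lost its call in 6 alternatives. BIRC7 and BIRC8 had 0 counts in every library.

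In the death receptor list, around CASP8, 6 of 15 tested genes rose, 3 fell and 6 did not pass. CFLAR, the catalytically dead relative that holds CASP8 in check, rose from 41.6 and 45.5 to 63.8 and 68.0 CPM (log2 0.59, SE 0.09). CASP8 had 0.0803 and 0.0716 counts per CFLAR count in shControl and 0.102 and 0.109 in shIGF2BP3. The ratio was thus higher in shIGF2BP3, while the inhibitor had the larger count throughout. Counts do not allow for gene length. Per kilobase of all annotated exons, mean CPM was 0.456 for CASP8 and 1.93 for CFLAR in shControl, and 0.962 and 2.92 in shIGF2BP3. RIPK1, a kinase that CASP8 cleaves, rose (log2 0.89), and so did MLKL, the effector of necroptosis (log2 1.38). TNFRSF25, a death receptor, fell by 1.60 on the log2 scale, from 9.73 and 10.03 to 3.32 and 3.21 CPM. The adaptor FADD stood at 34.1 and 34.0 CPM in shControl and 34.6 and 35.8 CPM in shIGF2BP3 and did not pass. The ligand FASLG and the kinase RIPK3 had 0 counts in every library, and the ligand TNFSF10 had 4 counts in 1 shIGF2BP3 library alone. The counts of this list depended on the processing: 3 rose and 1 fell with DESeq2's Wald test, without a low-count filter and without shControl replicate 2.

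Of the genes of the PIDDosome, on which CASP2 is activated, the adaptor CRADD fell by 1.04 on the log2 scale, from 10.8 and 12.7 to 6.53 and 4.85 CPM. PIDD1 stood at 24.6 and 27.6 CPM in shControl and 28.8 and 27.1 CPM in shIGF2BP3 and did not pass. NOL3, a CARD protein that restrains CASP2 and CASP8, rose by 0.90, from 35.7 and 36.2 to 71.3 and 62.6 CPM.

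At the mitochondrial gate, which decides whether cytochrome c is released, 2 of 7 genes rose, 3 fell and 2 did not pass. BID, the protein through which CASP8 reaches the mitochondrion, fell by 0.69 on the log2 scale, from 64.1 and 66.2 to 40.5 and 40.1 CPM. The inhibitor BCL2L1 fell (log2 -0.58), as did the pore former BAX (log2 -0.35), while the inhibitor MCL1 rose (log2 0.23). BCL2, another inhibitor, also rose (log2 0.22). The call of BAX ended with scaling by library size alone (adjusted p = 0.0537) and without 3 of the 4 libraries in turn, and that of MCL1 without shIGF2BP3 replicate 2 (adjusted p = 0.0534, edgeR). The call of BCL2 ended without shIGF2BP3 replicate 2 (adjusted p = 0.108, edgeR) and without either shControl library.

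Of 14 tested substrates of the executioners, 7 fell, 2 rose and 5 did not pass. The nuclear lamins fell, with log2 fold changes of -2.73 for LMNB2, -2.21 for LMNB1 and -0.57 for LMNA. LMNB1 went from 287.1 and 264.5 CPM in shControl to 61.0 and 58.1 CPM in shIGF2BP3. PAK2, a kinase that caspase cleavage activates, fell by 1.00 on the log2 scale, and so did PANX1, a channel that opens when cleaved (log2 -0.80). The actin-severing protein GSN rose (log2 0.73), as did the intermediate filament VIM (log2 0.14), whose call ended in 6 alternatives. XKR8, a scramblase that cleavage activates, had 0 counts in both shControl libraries and 2 and 6 in shIGF2BP3, too few to test. The nuclease DFFB and its inhibitor DFFA did not pass.

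**Figure D4:**
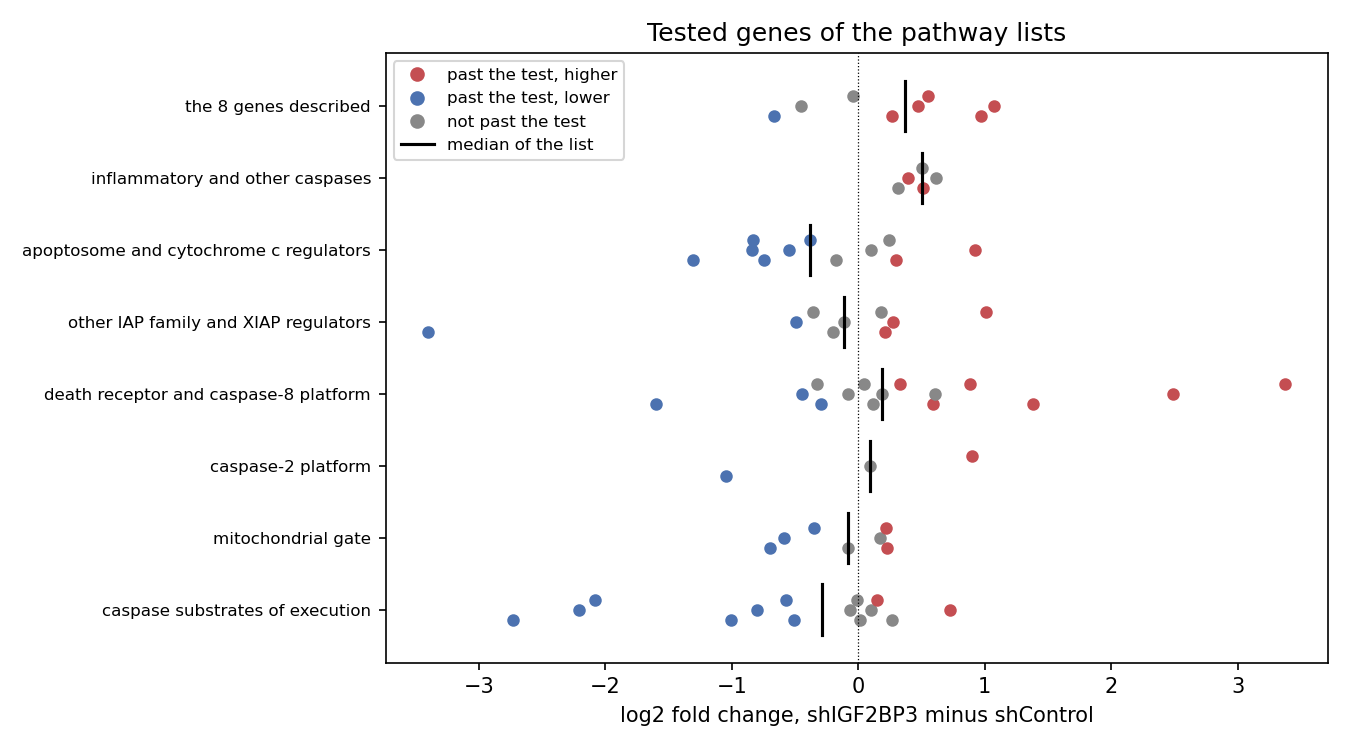
Log2 fold change (x axis, shIGF2BP3 minus shControl) of each tested gene (points, coloured by call) in the 8 genes described and in 7 pathway lists (rows), with the median of each list as a line. In the lists shown, which leave out 1 of the 8, the medians run from -0.38 for the apoptosome and cytochrome c regulators to 0.51 for the inflammatory and other caspases, and most lists hold genes of both directions.

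The promoters of the 8 genes were read from RefSeq windows (GRCh38.p14) of 250 bases before to 50 after each start site, which held 17 windows for the 8 genes among 35116 windows in the table. Because E2F2 fell and stands in the series title, the words TTTCCCGC, TTTCGCGC, TTTGCCGC and TTTGGCGC, forms of the E2F site, were searched on both strands. They stood in 0 of the 17 windows and in 3.31% of all windows, which says only that these letters are not in these windows. The word CCAAT stood in 7 of the 17 windows (34.6% of all windows), and GGGCGG, the GC box, in 12 (45.0%). Windows of the same gene can overlap and hold the same word. By gene, CCAAT stood in at least 1 window of 6 of the 8 genes, against 39.7% of all genes with windows. The GC box stood in at least 1 window of 7 of the 8, against 48.3%. On the other strand CCAAT reads ATTGG, its reverse complement. Words of the search can share bases, as neighbouring GC boxes do in the CASP9 stretch below. These words were searched with the fold changes known.

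Stretches of 3 promoters, picked with the fold changes known, are printed as examples of the sequence near RefSeq start sites. In these stretches CYCS has 2 CCAAT words and no GC box, CASP9 has 6 GC boxes and 1 CCAAT word, and CASP8 has 1 GC box. A stretch of DIABLO, read in the same way but not printed, held neither word. The window it was cut from has a GC box outside that stretch, and each other window of DIABLO also holds a GC box. Another window of CASP8 held CCAAT words and no GC box, and CASP2, which rose, also has GC boxes. Word counts were not tested against the direction of change. Each printed stretch is given 5′ to 3′ in the sense of the gene, with both words, on either strand, in capitals. It was taken from the window nearest the gene's annotated start, where no exon of GENCODE release 29 lies. The start site of that window lies 20 bases from the GENCODE gene start in CASP8, 101 in CYCS and 1744 in CASP9. The CASP9 stretch therefore lies inside the gene as annotated, and not before its first base. The bases are those of CYCS (chr7:25125362-25125510, minus strand), CASP9 (chr1:15524890-15525039, minus strand) and CASP8 (chr2:201233293-201233442, plus strand).
CYCS: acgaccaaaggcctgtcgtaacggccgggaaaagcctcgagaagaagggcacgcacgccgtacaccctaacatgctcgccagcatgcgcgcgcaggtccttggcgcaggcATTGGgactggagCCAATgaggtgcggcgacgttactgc
CASP9: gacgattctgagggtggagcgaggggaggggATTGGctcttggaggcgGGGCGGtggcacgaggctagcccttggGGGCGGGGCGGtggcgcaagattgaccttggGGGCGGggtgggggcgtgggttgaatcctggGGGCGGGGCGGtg
CASP8: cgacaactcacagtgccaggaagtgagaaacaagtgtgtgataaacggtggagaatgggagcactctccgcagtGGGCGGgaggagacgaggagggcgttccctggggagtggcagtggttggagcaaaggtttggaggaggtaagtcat

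The share of G and C in these stretches was 63.1% in CYCS, 72% in CASP9 and 56.7% in CASP8. A match of letters is a description and not evidence of binding.

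For the genes at either end of the set, those of most like pattern over the 4 libraries were found by the distance between log2 CPM values centred on each gene's own mean, among 14626 genes. Nearest to CASP8 were LINC00663 (distance 0.0271), LRRTM2 (0.0390) and RABGAP1L (0.0410). Nearest to CASP9 were THAP4 (0.0197), ZNF581 (0.0240) and ATXN7L3 (0.0286). Within a distance of 0.2 lay 274 genes for CASP8 and 495 for CASP9, so with 4 libraries these patterns are shared widely.

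**Figure D5:**
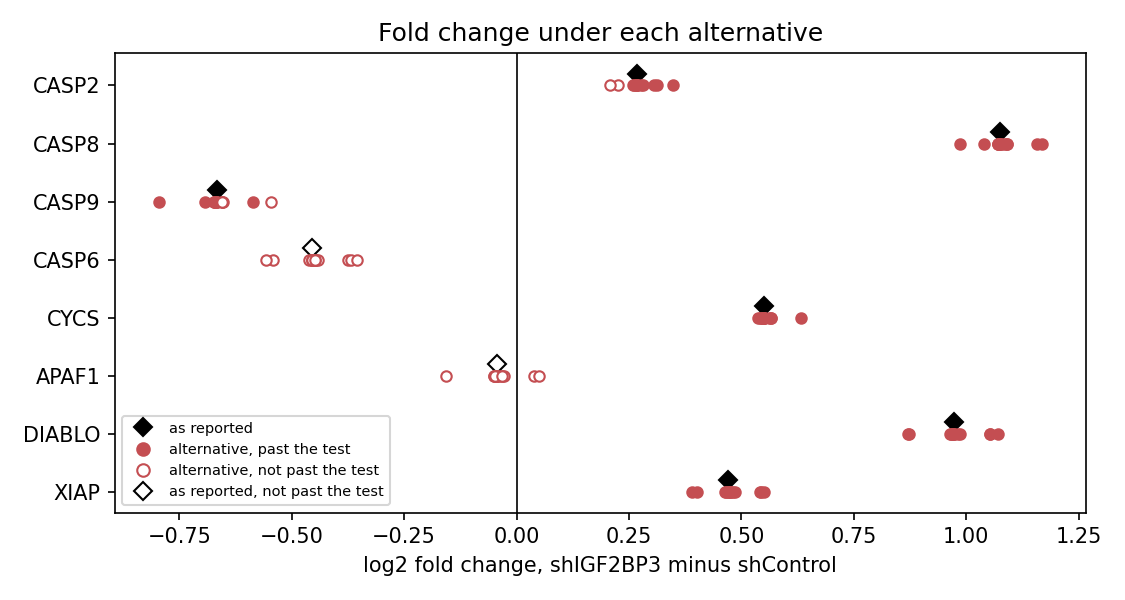
Log2 fold change (x axis, shIGF2BP3 minus shControl) of each of the 8 genes (rows) as reported (diamonds) and under 13 alternatives (circles, filled where the adjusted p was under 0.05). CASP8, DIABLO, CYCS and XIAP are filled throughout, CASP2 and CASP9 are open in 2 and 3 alternatives, and APAF1 lies on both sides of 0.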

How the data were processed

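Total RNA of SK-N-BE(2) cells was isolated by TRIzol for 2 shIGF2BP3 and 2 shControl libraries, which a TruSeq RNA kit prepared, per the labels' protocols. The authors deposited whole-number counts per Ensembl gene. The submitters' processing notes name HISAT2 2.2.0, StringTie and hg38 without role or order. No annotation release, strand setting or counting rule is given. Counts by StringTie would be estimates from coverage. Overlapping or near-identical genes could share reads.

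Symbols came from a table of gene names (56105 rows) and GENCODE release 29 (486), and 7661 rows had none. The main test was that of edgeR 4.0.16 (R 4.3.3): filterByExpr with a smallest count of 10, TMM scaling, and a robust quasi-likelihood fit (its newer form, legacy = FALSE) without covariates. Adjusted p-values are Benjamini-Hochberg over all tested genes. Intervals of fold changes use the moderated degrees of freedom, with 2 residual and a median prior of 15.06, at a common biological variation of 12.62%. Levels are given as TMM-scaled CPM, with mean ± SD over replicates, and also per kilobase of all exons of the gene. Limits for a count of 0 use 3 counts. The pipeline was tested on simulated data. Libraries with the same replicate number did not deviate together (correlation 0.0208 across genes), so numbers were not read as pairs.

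Some genes of the lists are counted but not reported by name here. The 8 genes and the lists were chosen with earlier results of these data known. Named were all 8 genes, IGF2BP3, E2F2, up to 4 called genes of each list by smallest p, genes with 0 counts in a group, the 3 genes of most like pattern (average log2 CPM 1 or more) and rows that share exons. HAND2, GATA3, CASP10, VDAC2, VDAC3, AVEN, OPA1, BIRC3, FADD, PIDD1, BCL2, LMNA, GSN, VIM, DFFA and DFFB were added after their values were seen. CASP4 was added in the same way. The newer quasi-likelihood form was chosen after the older one had been run and the results of the 8 genes under it had been seen, because it matched the count of called genes in an earlier description of these data. The alternatives covered scaling, filters, the test (DESeq2 1.42.0, limma 3.58.1 voom, the older edgeR form), a replicate block, summed pseudogene rows and leaving out each library. Sequences were read with Python 3.11.15.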

Additional observations from a re-analysis of the deposited data

How the results depend on the processing

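Over 13 alternatives, 99 of 104 values of the 8 genes stayed on their side of the threshold and 5 lost a call, and 0 called values changed direction. The older edgeR form was among them and was added after seeing the data. CASP8, DIABLO, CYCS and XIAP passed in all 13, with log2 fold changes of 0.99 to 1.17, 0.87 to 1.07, 0.54 to 0.63 and 0.39 to 0.55. APAF1, which did not pass in any, ranged from -0.16 to 0.05 and changed direction with scaling by library size alone (0.04) and without shControl replicate 1 (0.05). CASP9 was -0.67 with DESeq2 (adjusted p = 0.107), which left 0 of the 8 genes lower. Without single libraries, CASP9 ran from -0.80 to -0.55 and CASP2 from 0.21 to 0.31, the count of higher genes was 4 to 5 and that of lower genes 0 to 1, as given in the report by library. The count of higher genes in the pathway lists was 12 to 15 without single libraries, against 20, with 12 without shIGF2BP3 replicate 2 and 13 without shControl replicate 2. Fewer libraries enter those fits; the cause of the loss with DESeq2 was not tested. With the replicate block, 10509 genes passed, 6 of the 8 genes among them, and the block changed no call of the 8. The older edgeR form called 9894 genes, also with 6 of the 8. Scaling by library size alone gave 5739 higher and 4405 lower genes. Among pathway genes, 58 of 863 values lost a call, 7 gained one and 0 called values changed direction. Depth limits CASP6, CASP8 and CASP9, with 90 to 207 counts per library: an absent call for CASP6 does not show that it was unchanged.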
